A study of Mus musculus with 30 samples.

Results

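The immediate early genes Fos, Fosb, Jun, Junb, Egr1, Egr2 and Ier2 and the NR4A genes Nr4a1, Nr4a2 and Nr4a3 were followed through treatment of a mouse lymphoma line with mafosfamide, an in vitro active relative of cyclophosphamide that alkylates DNA. Each of the 10 genes was represented by the 1 probe set whose platform annotation held its symbol alone, and all 10 were measured, among 19937 genes on an array of 34760 probe sets. The level of the NR4A genes and of Fosb was lower after 24 h of drug than before it, and Fos and Fosb were lower after 24 h of drug in each of 3 resistant lines. Before treatment, several of these genes were among the most variable on the array between cultures of the same line.

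Immediate early genes are transcribed within minutes of a growth factor, antigen or stress signal and need no new protein synthesis for their induction. FOS and JUN proteins pair to form the transcription factor AP-1, EGR1 and EGR2 are zinc finger transcription factors, and the NR4A proteins are orphan nuclear receptors that bind DNA as monomers or dimers. In B cells this programme follows engagement of the antigen receptor, and transcription of the NR4A genes is widely used as a reporter of that signal.

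Gene expression was measured on 30 arrays, 1 for each culture sampled. The cells were Eµ-Myc; Cdkn2a-/- B cells of C57BL/6J background, in which an immunoglobulin enhancer drives Myc in B-lineage cells and the Cdkn2a locus is deleted, and every group carried both alleles. All cultures stood on a feeder layer of irradiated Cdkn2a-/- mouse embryonic fibroblasts. The parental line was sampled before drug (0 h, 5 arrays) and after 6 h (4 arrays), 12 h (4 arrays), 24 h (5 arrays) and 48 h (5 arrays) of 750 nM mafosfamide. The resistant sub-clones R100, R500, R1000 and R4000 were taken at successive steps of 1 dose escalation, at 100, 500, 1000 and 4000 nM, and were measured once each without drug, and R500, R1000 and R4000 once each after 24 h of 750 nM mafosfamide. The line is therefore the replicate among resistant cells, the lines are not independent derivations, and p-values measure the spread between cultures of 1 lymphoma. Parental arrays are named here by the culture number in their descriptions, which runs from 1 to 5 at 0, 24 and 48 h and from 2 to 5 at 6 and 12 h.

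Levels are on the log2 scale of the deposited values, so that a difference of 1 is a factor of 2, and levels of different genes come from different probes and are not compared. Of 13 B-cell marker genes measured, 12 lay above the median gene at 0 h, against 0 of 10 T and NK cell and 2 of 12 myeloid markers. Of 29 fibroblast markers 19 did, and their mean level ranged from 7.88 to 8.37 on the 0 h arrays and from 8.10 to 9.62 on the 24 h arrays. The 0 h array of culture 5 stood apart, with an interquartile range over genes of 2.97 against 3.36 to 3.75 on the other arrays. In bulk RNA, fewer cells of a type and less RNA per cell cannot be told apart.

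Before treatment the cultures of the parental line differed widely in these genes. The SD of Fosb between the 5 arrays at 0 h was 1.21 on the log2 scale, the rank 11 among 19937 genes, against a median SD of 0.19 over all genes. Jun (SD 1.08, rank 18), Nr4a1 (SD 1.04, rank 19) and Egr1 (SD 0.78, rank 80) were also near the top, and Fos (SD 0.25, rank 5967) and Nr4a3 (SD 0.26, rank 5414) were not. Culture 4 had the highest 0 h level of 8 of the 10 genes, culture 3 of Nr4a1 and culture 5 of Nr4a3.

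At 6 h of mafosfamide the spread of most of the genes was close to that of an ordinary gene. The SD of Fosb was 0.12 at 6 h and 0.03 at 12 h, where the median gene had 0.13 and 0.10. The SD of Nr4a1 was 0.18 at 6 h and 0.07 at 48 h. Jun kept a wide spread, with an SD of 0.64 at 6 h (rank 95), 0.49 at 12 h (rank 208) and 0.32 at 24 h (rank 1237). At 12 h Ier2 (SD 0.35, rank 495), Nr4a2 (SD 0.28, rank 990) and Junb (SD 0.26, rank 1176) also lay above most genes, as did Egr1 (SD 0.40, rank 623) and Fos (SD 0.32, rank 1069) at 48 h. The difference in spread between times was not tested.

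**Figure D1:**
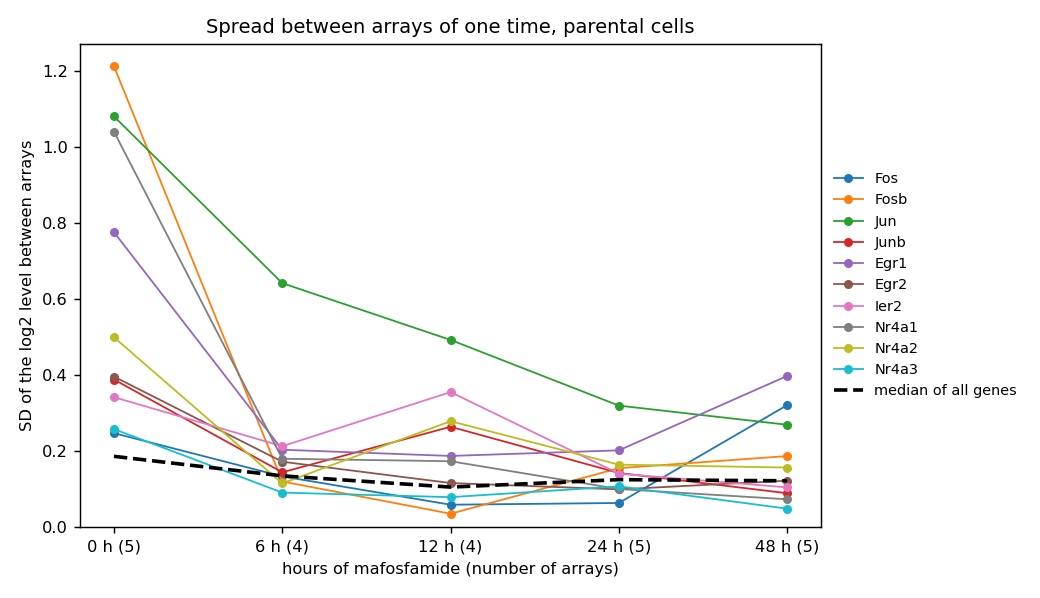
SD of the log2 level of each gene between the arrays of one time (vertical axis) against hours of mafosfamide (horizontal axis, with the number of arrays in brackets), and the median SD of all 19937 genes as a dashed line. At 0 h the SD of Fosb, Jun and Nr4a1 was above 1, and at 6 h only Jun lay far above the dashed line.

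Each time of treatment was compared with the 5 arrays at 0 h, to find which of the genes differed from their level before drug and when. These comparisons share their control arrays. No parental culture without drug was sampled at 6, 12, 24 or 48 h, so effects of the drug and of time in culture cannot be told apart. The same holds for the resistant lines, whose untreated arrays are labelled 0 h. Tests were made with limma over all 19937 genes with Benjamini-Hochberg adjustment and a threshold of 0.05 on the adjusted p. At 24 h, 4 of the 10 genes had fallen (Fosb, Nr4a1, Nr4a2 and Nr4a3) and 0 had risen, where 6.78% of all genes passed and 2.43% passed as lower. The median log2 difference of the 10 genes at 24 h was -0.30, against -0.04 over all genes. At 6 h, 0 of the 10 genes passed, where 0.0201% of all genes did, and 4 had an unadjusted p under 0.05, as had 5.13% of all genes. The median difference at 6 h was -0.37 with all 10 genes below 0, against a median of -0.01 over all genes. At 12 h, 0 of 10 passed (0.512% of all genes) and 5 had an unadjusted p under 0.05 (11.9% of all genes). At 48 h, 0 of 10 passed (0.251% of all genes) and 5 had an unadjusted p under 0.05 (11.7% of all genes). Again all 10 genes were below 0, with a median of -0.32 against -0.02 over all genes. The 10 signs are not independent, since culture 4 had the highest 0 h level of 8 of the 10 genes.

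**Figure D2:**
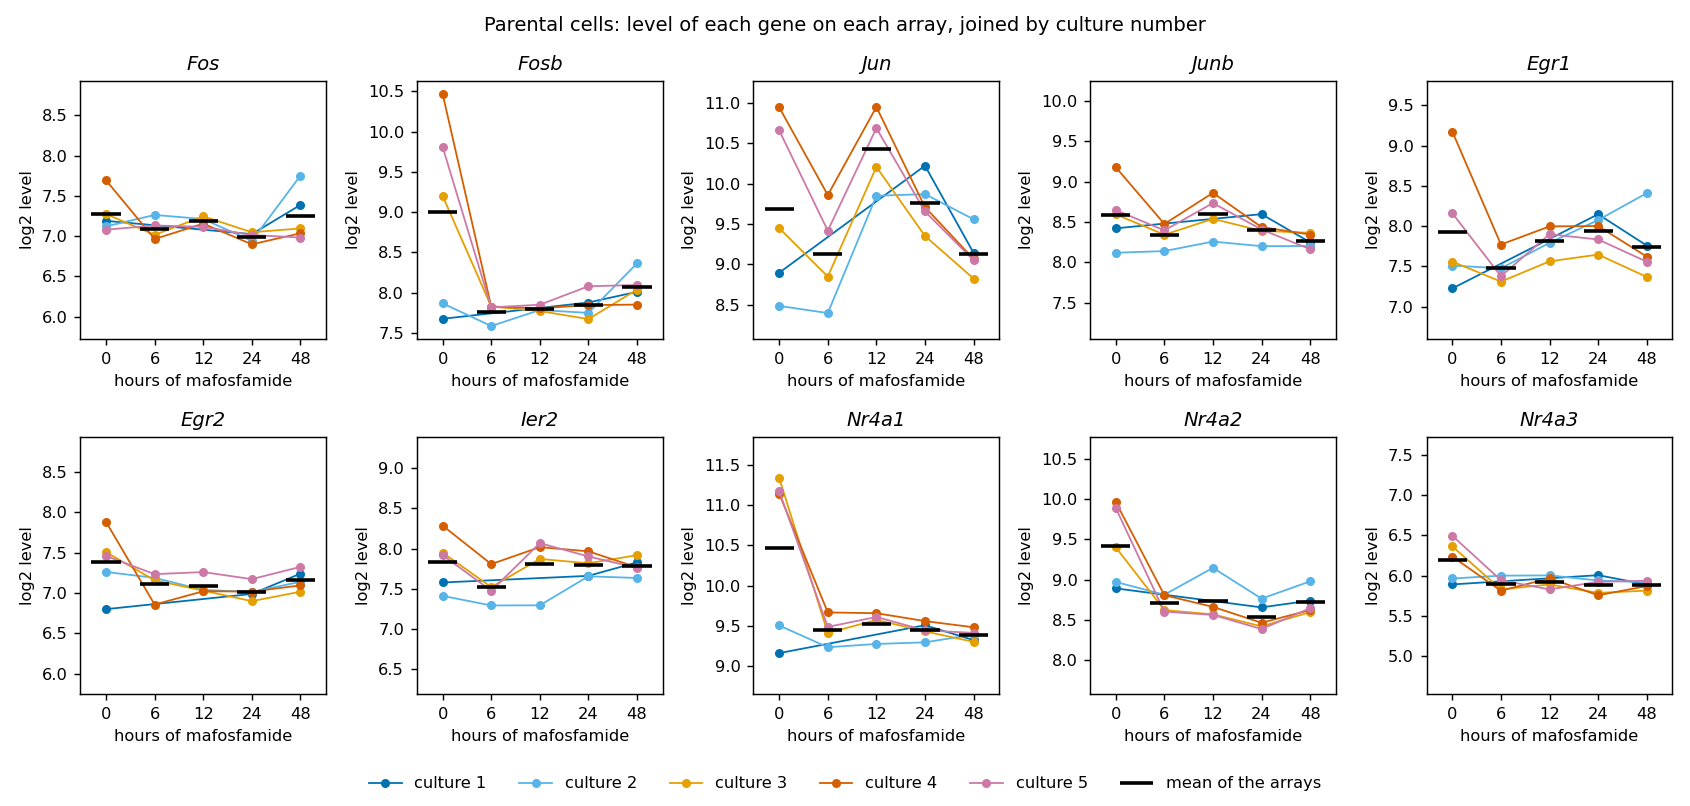
Log2 level (vertical axis, spanning the same range in each panel) of each gene on each parental array against hours of mafosfamide (horizontal axis, evenly spaced), with arrays of one culture number joined and a black bar at the mean of each time. The 0 h arrays of cultures 3, 4 and 5 sit well above all later arrays in the panels of Fosb and Nr4a1, and those of cultures 1 and 2 do not, while in the panel of Jun the 12 h arrays are higher than the 6 h arrays in all 4 cultures measured at both times.

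Among the NR4A genes, Nr4a2 (also called Nurr1) gave the clearest fall. Its level at 0 h was 8.89, 8.97, 9.40, 9.96 and 9.89 in cultures 1 to 5, and at 24 h it was 8.66, 8.76, 8.42, 8.46 and 8.39. All 24 h arrays lay below all 0 h arrays. Such a separation was found for 2 of the 10 genes, Nr4a2 and Fos, and for 2.6% of all genes. The difference of -0.88 (SE 0.17, a factor of 1.85) passed the test with an adjusted p of 0.00423, and Nr4a2 was lower at 24 h in 5 of 5 cultures, by between -0.21 and -1.50.

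At the other times Nr4a2 was at a like level. It measured 8.81, 8.62, 8.81 and 8.60 at 6 h in cultures 2 to 5, 9.15, 8.57, 8.66 and 8.56 at 12 h, and 8.74, 8.98, 8.60, 8.62 and 8.64 at 48 h in cultures 1 to 5. The differences from 0 h were -0.71 at 6 h (adjusted p = 0.218), -0.69 at 12 h (adjusted p = 0.0859) and -0.71 at 48 h (adjusted p = 0.0878). At 12 h the array of culture 2 lay above the 0 h arrays of cultures 1 and 2, and it was the one culture in which Nr4a2 was not lower than at 0 h.

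Nr4a1 (Nur77), a reporter of antigen receptor signals in lymphocytes, fell into a low and a high set of cultures at the start. Its level at 0 h was 9.16 and 9.51 in cultures 1 and 2 and 11.34, 11.14 and 11.17 in cultures 3, 4 and 5. On all 18 later parental arrays it lay between 9.24 and 9.67, a range that includes the 0 h array of culture 2 and lies above that of culture 1. The difference at 24 h was -1.01 (SE 0.29, a factor of 2.02, adjusted p = 0.0403). It was -1.90, -1.58 and -1.72 in cultures 3, 4 and 5, -0.21 in culture 2, and 0.35 in culture 1, which rose.

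Nr4a3 (Nor1) moved in the same direction by less. It measured 5.89, 5.97, 6.36, 6.24 and 6.49 at 0 h and 6.01, 5.94, 5.79, 5.76 and 5.92 at 24 h. The difference of -0.31 (SE 0.09) passed the test (adjusted p = 0.043), with 4 of 5 cultures lower and the 0 h arrays of cultures 1 and 2 inside the range of the 24 h arrays. The probe set of Nr4a3 was dim, its mean over the 30 arrays lying at percentile 18.9 of all genes.

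All 3 NR4A genes passed as lower at 24 h in parental cells. The sequence before their start sites was read from a RefSeq promoter table of assembly GRCm38.p6. That of Fosb, the other gene that fell at 24 h, was read too, and that of Fos, which fell in the resistant lines. The table held windows for 8 of the 10 genes, and not for Egr1 and Ier2. Capitals mark the core of the cyclic AMP response element, TGACG or on the other strand CGTCA, a site of CREB-family factors. Each line gives the 250 bases before the start site, 5′ to 3′ on the gene's strand.
Nr4a1, chr15:101266596-101266845, plus strand: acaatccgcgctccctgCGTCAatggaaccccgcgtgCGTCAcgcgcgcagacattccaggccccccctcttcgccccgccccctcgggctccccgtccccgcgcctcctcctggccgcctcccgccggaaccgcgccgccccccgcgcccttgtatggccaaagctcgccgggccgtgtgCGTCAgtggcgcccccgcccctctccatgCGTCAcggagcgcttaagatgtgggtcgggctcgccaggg
Nr4a2, chr2:57124004-57124253, minus strand: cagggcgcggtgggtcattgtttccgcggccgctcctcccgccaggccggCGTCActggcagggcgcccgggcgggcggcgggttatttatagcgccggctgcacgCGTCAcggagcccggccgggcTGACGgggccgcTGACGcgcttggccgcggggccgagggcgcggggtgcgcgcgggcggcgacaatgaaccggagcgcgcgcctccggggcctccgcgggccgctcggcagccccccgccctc
Nr4a3, chr4:48045055-48045304, plus strand: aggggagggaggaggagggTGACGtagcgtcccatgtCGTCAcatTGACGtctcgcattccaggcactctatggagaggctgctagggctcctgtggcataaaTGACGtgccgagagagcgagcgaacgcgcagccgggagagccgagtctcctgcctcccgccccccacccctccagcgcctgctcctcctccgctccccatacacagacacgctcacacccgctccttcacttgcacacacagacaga
Fosb, chr7:19310046-19310295, minus strand: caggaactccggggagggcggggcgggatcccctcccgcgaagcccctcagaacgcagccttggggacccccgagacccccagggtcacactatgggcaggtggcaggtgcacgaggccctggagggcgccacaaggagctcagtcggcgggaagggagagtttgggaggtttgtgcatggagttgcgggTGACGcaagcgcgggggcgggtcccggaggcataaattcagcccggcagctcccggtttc
Fos, chr12:85473640-85473889, plus strand: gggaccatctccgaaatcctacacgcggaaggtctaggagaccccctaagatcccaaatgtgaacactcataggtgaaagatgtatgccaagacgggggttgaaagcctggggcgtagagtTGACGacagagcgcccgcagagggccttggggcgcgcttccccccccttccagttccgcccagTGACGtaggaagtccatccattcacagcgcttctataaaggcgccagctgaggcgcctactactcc

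The core was found in 7 of the 8 genes with a window, Jun being the exception. Egr2 has 5 windows, some overlapping, and the others 1 each, so that 9 of the 12 windows of these genes held the core, 3 of the 5 of Egr2 among them, against 20.8% of all 32851 windows, each running from 250 bases before to 50 bases after a start site. Nr4a1, Nr4a2 and Nr4a3 each held 4 copies in their window, as 0.231% of all windows held 4 or more, Fos held 2, and Fosb held 1. The whole palindrome TGACGTCA, which contains the core, was in 0 of the 8 genes and in 1.79% of windows. The binding motif of EGR proteins, GCGNGGGCG, was in 3 of the 8 genes (Fosb, Nr4a1 and Nr4a2) and in 5.55% of windows. The CArG box, bound by serum response factor, was in 1 of the 8 (Egr2, in 4 of its 5 windows) and in 1.63% of all windows, the AP-1 site TGANTCA in 0 of 8 and 7.81%, the NR4A monomer site AAAGGTCA in 0 of 8 and 1.51%, and TATAAA in 3 of 8 and 13.6%. All motifs were searched on both strands, a match is a description of letters and not a bound site, and no match says only that these letters are not in the window.

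Of the AP-1 genes, Fosb, which encodes a partner of JUN proteins, fell at 24 h. It measured 7.68, 7.87, 9.20, 10.47 and 9.81 at 0 h in cultures 1 to 5. It measured 7.59, 7.83, 7.83 and 7.82 at 6 h and 7.79, 7.77, 7.81 and 7.85 at 12 h in cultures 2 to 5, and 7.88, 7.75, 7.67, 7.85 and 8.08 at 24 h. These later arrays lay close to the 0 h arrays of cultures 1 and 2 and far below those of cultures 3, 4 and 5. The difference at 24 h was -1.16 (SE 0.34, a factor of 2.23, adjusted p = 0.0423). It was -1.53, -2.62 and -1.73 in cultures 3, 4 and 5, -0.12 in culture 2 and 0.20 in culture 1. At 48 h Fosb measured 8.01, 8.36, 8.04, 7.85 and 8.10, and the difference from 0 h was -0.93 (adjusted p = 0.336).

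The difference of Fos itself, the classical immediate early gene, was smaller. It measured 7.19, 7.12, 7.27, 7.69 and 7.08 at 0 h and 7.03, 6.94, 7.05, 6.90 and 7.01 at 24 h, so that the groups did not overlap. The mean of Fos over the 30 arrays lay at percentile 44.8 of all genes. The difference of -0.29 (SE 0.12) missed the threshold (adjusted p = 0.128), and all 5 cultures were lower. At 48 h the arrays of cultures 1 and 2 measured 7.39 and 7.75, above those of the other cultures at that time (7.10, 7.04 and 6.98). The same arrays had the highest mean of fibroblast markers at 48 h, 8.76 and 8.97 against 7.76 to 8.29, and the part of these cells in the level of Fos was not tested.

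Jun followed a course unlike that of Fosb and Fos. It measured 8.89, 8.48, 9.45, 10.95 and 10.66 at 0 h in cultures 1 to 5. In cultures 2 to 5 it measured 8.39, 8.85, 9.86 and 9.42 at 6 h and 9.85, 10.21, 10.95 and 10.69 at 12 h. It measured 10.22, 9.87, 9.35, 9.71 and 9.65 at 24 h and 9.14, 9.56, 8.82, 9.06 and 9.05 at 48 h. The 6 h array was below the 0 h array and the 12 h array above the 6 h array in 4 of 4 cultures. Egr1 and Ier2 had the same order of these times in each of cultures 2 to 5. Their mean steps from 6 to 12 h were smaller, at 0.33 and 0.29, and Ier2 was nearly level in culture 2. Junb was also higher at 12 h than at 6 h in each of these cultures, by a mean of 0.26.

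The steps of Jun between neighbouring times were compared after the data had been seen. From 6 to 12 h Jun differed by 1.46, 1.36, 1.09 and 1.27 in cultures 2 to 5, a mean of 1.30 (SE 0.41). This had an unadjusted p of 0.00447 and an adjusted p of 0.999 by limma. In this fit 0 of the 10 genes and 0.0351% of all genes passed. Of the 10, 1 had an unadjusted p under 0.05, as had 2.45% of all genes. With arrays weighted by their quality the step was 1.55 and passed (adjusted p = 0.0149), as did 276 of 19937 genes in that fit. From 12 to 24 h Jun differed by 0.02, -0.86, -1.24 and -1.03 in cultures 2 to 5, a mean of -0.78. The fit, which compares group means and so includes the 24 h array of culture 1, gave -0.66 (adjusted p = 0.627). Again 0 of 10 genes and 0.0351% of all genes passed. An unadjusted p under 0.05 was found for 0 of the 10 and for 10.3% of all genes. The weighted fit gave -0.98 for this step (adjusted p = 0.0221), where 1797 of 19937 genes passed.

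Cultures 1 and 2 had more Jun at 24 h than at 0 h, by 1.33 and 1.39, and cultures 3, 4 and 5 less, by -0.10, -1.24 and -1.01. The mean difference at 24 h was accordingly near 0 (0.07, SE 0.37, adjusted p = 0.902). Junb, a JUN relative with weaker transactivation, ranked the cultures as Jun did at 0 h, over a narrower range, and not at 24 h. It measured 8.42, 8.12, 8.59, 9.18 and 8.65 at 0 h and 8.60, 8.20, 8.39, 8.44 and 8.41 at 24 h, a difference of -0.19 (adjusted p = 0.362).

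Egr1 gave no consistent direction between 0 and 24 h. At 6 h Egr1 was lower than at 0 h in 4 of 4 cultures, by between -0.03 and -1.40. It measured 7.23, 7.51, 7.56, 9.17 and 8.16 at 0 h and 8.15, 8.08, 7.65, 8.0 and 7.83 at 24 h, and the difference was 0.02 with a 95% interval from -0.51 to 0.54. It was higher at 24 h by 0.92, 0.57 and 0.09 in cultures 1, 2 and 3 and lower by -1.17 and -0.33 in cultures 4 and 5. Egr2, which shares its zinc finger DNA binding with Egr1, measured 6.80, 7.26, 7.51, 7.88 and 7.46 at 0 h and 6.99, 7.01, 6.90, 7.02 and 7.17 at 24 h. The difference of -0.36 (SE 0.13) missed the threshold (adjusted p = 0.0811), with 4 of 5 cultures lower. With the culture number as a block in the fit, the same difference passed (adjusted p = 0.0403), which made 5 of the 10 genes lower at 24 h, and 4711 genes in all passed in place of 1351.

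Ier2, a small nuclear immediate early protein, was nearly level between 0 and 24 h. At 6 h Ier2 was lower than at 0 h in 4 of 4 cultures, by between -0.12 and -0.48. It measured 7.58, 7.41, 7.95, 8.28 and 7.92 at 0 h and 7.66, 7.66, 7.82, 7.97 and 7.90 at 24 h, a difference of -0.03 (SE 0.15, adjusted p = 0.907). Between 24 and 48 h, 0 of the 10 genes passed the test (0.105% of all genes). Of the 10, 1, Fos with a difference of 0.27, had an unadjusted p under 0.05, as had 6.77% of all genes.

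**Figure D3:**
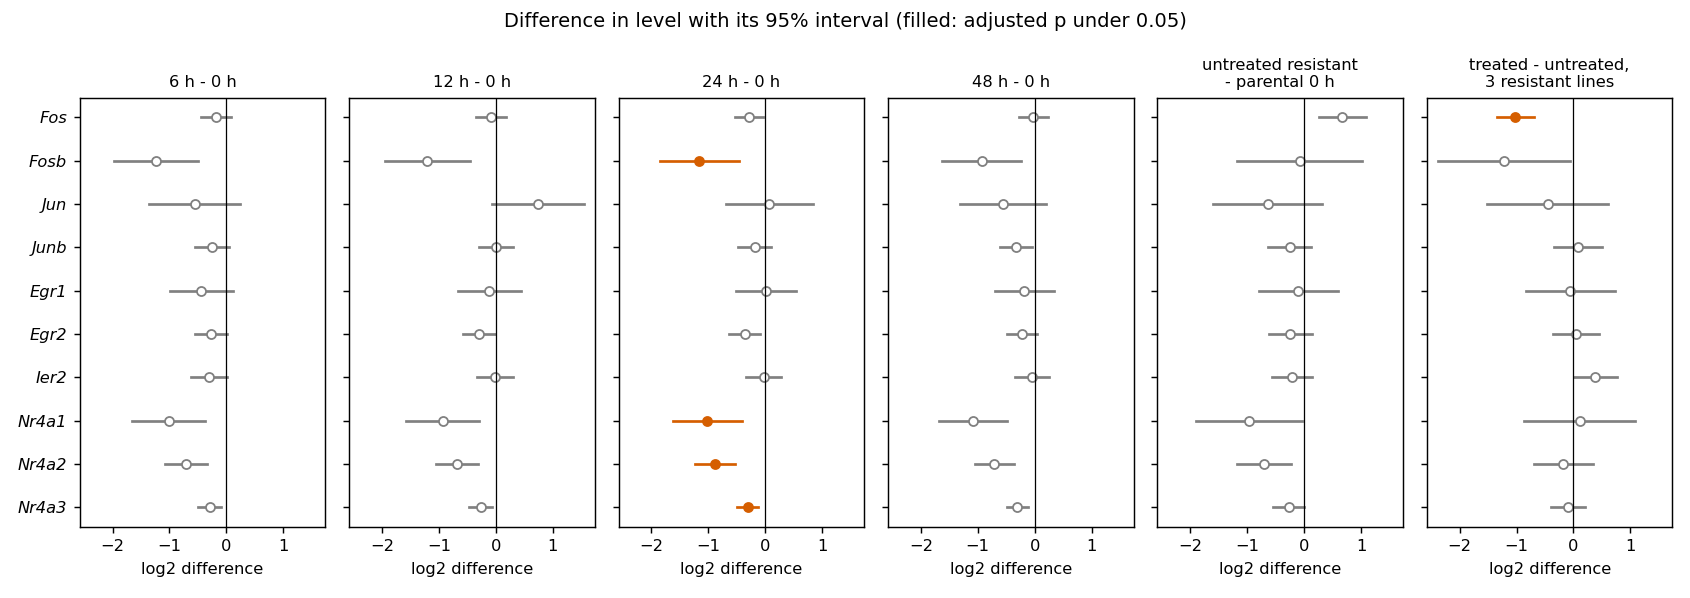
Difference in log2 level (horizontal axis) of each gene in 6 comparisons, with its 95% interval from limma, filled and in colour where the adjusted p over 19937 genes was under 0.05. In the 24 h panel Fosb, Nr4a1, Nr4a2 and Nr4a3 lie below 0 and are filled, and in the panel of treated resistant lines Fos is filled at -1.02 and Fosb, at -1.22, has a wide interval.

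Of the 4 calls at 24 h, that of Nr4a2 held without any 1 array, and the other 3 did not. Without the 0 h array of culture 5, Nr4a2 still passed (-0.77, adjusted p = 0.0152), and Fosb (-0.96, adjusted p = 0.123), Nr4a1 (-0.84, adjusted p = 0.118) and Nr4a3 (-0.23, adjusted p = 0.12) did not. Leaving out any 1 of 14 of the 23 parental arrays ended the call of Fosb (the 0 h arrays of cultures 3, 4 and 5, the 6 h arrays of 3 and 5, the 12 h arrays of 3, 4 and 5, any 24 h array and the 48 h array of culture 4), with differences from -0.79 to -1.22 and adjusted p from 0.0502 to 0.123. For Nr4a1 any 1 of 8 arrays did so (the same 0 h arrays and any 24 h array), with -0.80 to -1.04 and adjusted p from 0.0581 to 0.118. For Nr4a3 any 1 of 12 did (the 0 h arrays of cultures 3 and 5, the same 6, 12 and 48 h arrays as for Fosb, and the 24 h arrays of cultures 2 to 5), with -0.23 to -0.32 and adjusted p from 0.0503 to 0.12. In a fit of the 0 and 24 h arrays alone Nr4a2 had an adjusted p of 0.0724. The fits with an array left out did not use the culture number. With it as a block on all 23 arrays, limma gave the 4 genes adjusted p from 0.00194 (Nr4a2) to 0.0229 (Nr4a3). In that fit 4711 of all genes passed.

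At 6, 12 and 48 h some of the genes passed once a low 0 h array, of culture 1 or 2, was left out. Leaving out a 0 h array that is low in these same genes must deepen their fall. These calls are therefore a description and lend the falls no support. Without that of culture 1, Fosb (-1.57, adjusted p = 0.0492) and Nr4a1 (-1.34, adjusted p = 0.0324) passed at 6 h, Fosb, Nr4a1 and Nr4a2 passed at 12 h with adjusted p from 0.0127 to 0.0193, and Fosb, Nr4a1, Nr4a2 and Nr4a3 passed at 48 h with adjusted p from 0.00599 to 0.0395. Without that of culture 2, Fosb (-1.48) and Nr4a2 (-0.80) passed at 12 h and Nr4a1 (-1.32) and Nr4a2 (-0.82) at 48 h. Nr4a2 also passed at 12 h without the 12 h array of culture 2 (-0.83, adjusted p = 0.0334), and Egr2 at 24 h without the 0 h array of culture 1 (-0.51, adjusted p = 0.00597). Over all 19937 genes, 20, 179, 2426 and 219 passed at 6, 12, 24 and 48 h without the 0 h array of culture 1. Without the 0 h array of culture 2, 171 passed at 12 h and 110 at 48 h. Without the 12 h array of culture 2, 133 passed at 12 h.

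Fibroblast markers rose over the same interval: 13 of 29 passed the test at 24 h, all higher, with a median difference of 0.84. Of all genes 6.78% passed at 24 h. With the mean fibroblast level as a covariate, Nr4a2 was lower at 24 h by -1.21 (adjusted p = 0.000858), and Fosb (-1.51, adjusted p = 0.0549), Nr4a1 (-1.15, adjusted p = 0.103) and Nr4a3 (-0.41, adjusted p = 0.0509) were lower by more than without it and missed the threshold. With this covariate the differences of Jun and Egr1 turned from 0.07 to -0.60 (adjusted p = 0.408) and from 0.02 to -0.60 (adjusted p = 0.213), and that of Ier2 from -0.03 to 0.01. Egr1 had the highest r with the fibroblast mean of the 10 genes, 0.64 in deviations from the means of the parental times and 0.55 over the 30 arrays. The fibroblast mean at 24 h was highest in cultures 1 and 2, at 9.62 and 9.18 against 8.10 to 8.89 in the others, and its part in the levels of Jun and Egr1 there was not tested. Of the other marker lists at 24 h, 2 of 13 B-cell genes passed as higher (Igll1 and Vpreb1, of the surrogate light chain) and 1 of 12 myeloid genes as lower (Cebpa), while 0 of 10 T and NK cell genes and 0 of 17 housekeeping genes passed by limma (median differences of -0.19 and 0.04). At 48 h 1 of 13 B-cell genes and 0.251% of all genes passed. The B-cell gene was Ebf1, a B-lineage transcription factor gene, which fell by 0.37 (adjusted p = 0.0211). The mean level of the B-cell list was 11.83 at 48 h and 11.65 at 0 h.

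Of the 86 genes of the 4 pathway lists, 11 passed at 24 h, where 6.78% of all genes did. Among 12 other AP-1 genes, 1 passed, a share near that of all genes: Jund, a JUN family member, fell by 0.49 (adjusted p = 0.041). Among 45 other immediate early genes, 3 rose and 3 fell at 24 h, and their median difference was -0.06, against -0.04 over all genes. Btg2, an antiproliferative gene and p53 target, fell by 0.73, Klf10, a Krüppel-like repressor, fell by 0.59 and Zfp36, which promotes decay of messenger RNAs with AU-rich elements, fell by 0.45. Errfi1, a feedback inhibitor of EGF receptors, rose by 1.41, Ccn1, a secreted matrix protein, rose by 1.21 and Ier5 rose by 0.76. Ier5 was also the 1 immediate early gene of this list that passed at 12 h, while 0.512% of all genes passed. It rose there by 1.15 (adjusted p = 0.00013). At 48 h Btg2 fell by 0.92 and Btg1 fell by 0.37, and the other 43 did not pass, while 0.251% of all genes passed.

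Of 7 feedback inhibitors, the Sprouty and Spred inhibitors of ERK signalling and the EGR corepressors Nab1 and Nab2, Spry4 rose by 0.75 (adjusted p = 0.0136) and Spred1 rose by 0.42 (adjusted p = 0.0453) at 24 h, and the other 5 did not pass. Of 22 upstream factors and kinases, Mrtfa, a coactivator of serum response factor, rose by 0.35 at 24 h and by 0.43 at 12 h, and Srf, serum response factor itself, fell by 0.27 at 24 h. At 24 h 6.78% of all genes passed. At 6 h, 0 of the 86 genes of these 4 lists passed by limma, while 0.0201% of all genes passed. Of the 86, 18 had an unadjusted p under 0.05, as had 5.13% of all genes. Spry4, Errfi1 and Ccn1 are also expressed by fibroblasts, whose markers rose at this time, and the part of the fibroblasts in their rise was not tested.

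The resistant lines were compared without drug with the parental 0 h arrays, to see whether resistance had shifted the resting level of these genes. By limma over these 9 arrays, 0 of the 10 genes passed the test, where 0.0752% of all genes did, and 4 had an unadjusted p under 0.05 (Fos, Nr4a1, Nr4a2 and Nr4a3), as had 7.1% of all genes. Fos measured 7.50, 8.05, 7.73 and 8.49 in untreated R100, R500, R1000 and R4000. The last 3 lay above every parental array at 0 h, of which the highest was 7.69, and the mean difference was 0.67 (SE 0.19, adjusted p = 0.373).

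The NR4A genes in untreated resistant lines lay in the lower part of the parental 0 h range or below it. Nr4a1 measured 9.47, 9.32, 9.66 and 9.55, near the 0 h arrays of cultures 1 and 2 and below those of cultures 3, 4 and 5, and the mean difference was -0.96 (SE 0.42, adjusted p = 0.673). Nr4a2 measured 8.78, 8.60, 8.57 and 8.92, the first 3 of these below every parental 0 h array (lowest 8.89), and the difference was -0.71 (adjusted p = 0.417). Nr4a3 lay between 5.85 (R500, below the lowest 0 h array at 5.89) and 5.97, and the difference was -0.27 (adjusted p = 0.691). Fosb measured 8.85, 8.69, 8.78 and 9.37, between the low and the high parental arrays, and Jun lay between 8.93 and 9.18. Of the other immediate early genes, Gadd45b, a stress-induced gene, rose by 1.34 (adjusted p = 0.0117) and Btg2 fell by 1.22 (adjusted p = 0.0155). The other 43 of 45 did not pass, while 0.0752% of all genes passed.

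After 24 h of mafosfamide Fos and Fosb were lower in R500, R1000 and R4000. Fos went from 8.05 to 7.04 in R500, from 7.73 to 7.06 in R1000 and from 8.49 to 7.11 in R4000. The 3 treated arrays lay within 0.07 of each other, beside the lowest parental array at 0 h (7.08). On these 3 arrays Fos was below the median gene, which measured between 7.48 and 7.52. In a fit of 16 arrays with a term for each line, Fos was lower by -1.02 (SE 0.15, a factor of 2.03, adjusted p = 0.0271). It was the 1 gene of the 10 that passed, where 0.0301% of all genes did and 0.00502% as lower, which is Fos alone, and 3 of the 10 had an unadjusted p under 0.05, as had 2.9% of all genes.

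Fosb went from 8.69 to 7.78 in R500, from 8.78 to 7.70 in R1000 and from 9.37 to 7.71 in R4000, and again the treated arrays were close together. Its mean difference of -1.22 was the largest fall of all 19937 genes by the mean over the 3 lines, and that of Fos had rank 4. In the fit of 16 arrays, whose spread includes that of the parental 0 h arrays, the SE was 0.54 and the adjusted p was 1. In a fit of the resistant arrays alone the same difference had an SE of 0.14 and passed (adjusted p = 0.0247), as did Fos. Of the 10 genes, 5 were lower after drug in all 3 lines (Fos, Fosb, Jun, Nr4a2 and Nr4a3), as were 21.5% of all genes.

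**Figure D4:**
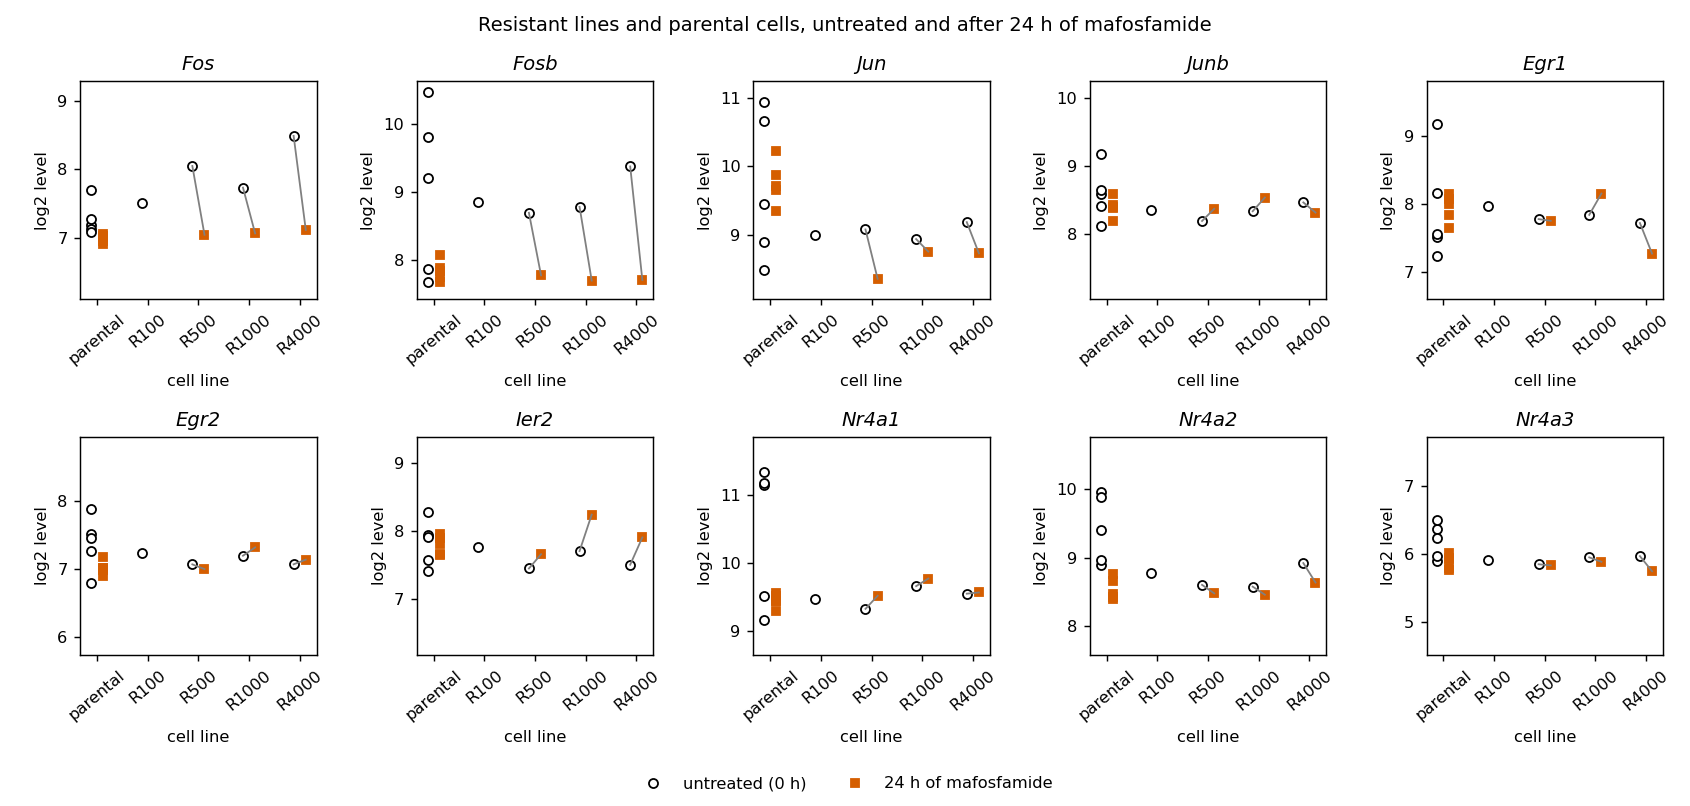
Log2 level (vertical axis, spanning the same range in each panel) of each gene in parental cells and in the 4 resistant lines (horizontal axis), untreated (open circles) and after 24 h of mafosfamide (filled squares), 1 point for each array, with a line joining the arrays of one resistant line. Fos and Fosb drop to between 7.04 and 7.78 in each treated line, while Nr4a1 stays between 9.32 and 9.77 in all resistant arrays.

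None of the other 8 genes passed on treatment of the resistant lines. Jun went from 9.07 to 8.35 in R500, from 8.93 to 8.75 in R1000 and from 9.18 to 8.72 in R4000, a mean difference of -0.46 (SE 0.50), which had rank 182 among the falls of all 19937 genes. In the fit of the resistant arrays alone its SE was 0.10 (adjusted p = 0.145). Ier2 was higher by 0.21, 0.54 and 0.40 in these lines (mean 0.38, unadjusted p of 0.0486, adjusted p = 1), at rank 19733 of 19937 from the largest fall, and the resistant arrays alone gave an adjusted p of 0.128. Nr4a1 differed by 0.19, 0.11 and 0.02 and Nr4a2 by -0.12, -0.12 and -0.28, with mean differences of 0.11 (SE 0.46) and -0.18 (SE 0.24). Of the 86 genes of the 4 pathway lists, 0 passed by limma in this comparison. Of these, 1 had an unadjusted p under 0.05, as had 2.9% of all genes. Fibroblast markers were lower in the treated lines, where 28 of 29 had a difference below 0 and 0 passed. Their median difference was -0.20, against -0.02 over all genes. With the mean of these markers as a covariate, the limma difference of Fos was -0.98 (adjusted p = 0.0781).

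The call of Fos was close to the threshold. With each array centred on its median it was -0.98 (adjusted p = 0.0527). Leaving out any 1 of 11 arrays ended it: the 6 arrays of R500, R1000 and R4000, the 0 h array of culture 3 and the 24 h arrays of cultures 1, 3, 4 and 5, with differences from -0.84 to -1.19 and adjusted p from 0.0505 to 0.473.

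Whether the response differed between resistant and parental cells was tested as the difference of the 2 treatment effects. By limma 0 of the 10 genes passed, as did 0.0% of all genes, and 2 of the 10 had an unadjusted p under 0.05, as had 7.83% of all genes. These were Fos, with a fall larger by -0.73 in resistant lines (SE 0.19, adjusted p = 0.338), and Nr4a2, with a difference in response of 0.71 (SE 0.30, adjusted p = 0.583). For Nr4a1 the difference in response was 1.12 with a 95% interval from -0.12 to 2.36, and for Fosb it was -0.06 with an interval from -1.53 to 1.40. Both intervals include differences in response of more than a factor of 2.

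The study ranked probe sets by covariance of their level, in its Results with the measured effective concentration of the drug. Its supplementary methods name the treatment or resistance order instead. The covariance with order was computed here for each gene as a description, and 1000 genes were taken at each end. Covariance grows with the spread of a gene, so a low or high rank is not a test. Nr4a1 and Jun, with a wide spread at 0 h, had adjusted p of 0.673 and 0.857 by limma for untreated resistant lines. With the order of time in parental cells, 4 of the 10 genes were among the 1000 lowest: Nr4a1 (rank 9 from the lowest), Fosb (rank 20), Nr4a2 (rank 36) and Nr4a3 (rank 913). With the order from parental to R4000, 5 of the 10 were among the 1000 lowest: Nr4a1 (rank 14), Nr4a2 (rank 50), Jun (rank 72), Egr2 (rank 749) and Ier2 (rank 849). Fos was among the 1000 highest in that order, at rank 19 from the highest. Both orders share the 0 h arrays.

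Across the 30 arrays the NR4A genes were the most alike of the 10. Pearson's r was 0.85 between Nr4a2 and Nr4a3, 0.83 between Nr4a1 and Nr4a3 and 0.77 between Nr4a1 and Nr4a2, and that between Fosb and Nr4a2 was 0.77. Jun was closest to Junb (r = 0.74), and Fos was related to Fosb (r = 0.59) and not to Ier2 (r = -0.20). Taken as deviations from the means of the 5 parental times over 23 arrays, the NR4A pairs were no longer the most alike, with r of 0.73, 0.73 and 0.63 in the same order. The highest r were then 0.87 between Fosb and Nr4a1, 0.85 between Junb and Ier2 and 0.81 between Jun and Junb. These arrays share the line, the platform and the normalization, and the 0 h arrays weigh heavily in each value.

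Outside the 10 genes, the most alike to Nr4a1 over the 30 arrays were Dusp16, a phosphatase of JNK and p38 kinases (r = 0.93), Klf11, a Krüppel-like transcription factor (r = 0.92) and Cytip (r = 0.90). Klf11 was also among the 3 most alike to Fosb (r = 0.84), Egr2 (r = 0.72), Nr4a2 (r = 0.88) and Nr4a3 (r = 0.87). Nr4a2 was most like Ccr7, a chemokine receptor of lymphocytes (r = 0.88), and, in the third place, Rel, an NF-kB subunit (r = 0.86). Egr1 was most like Dusp1, a phosphatase of MAP kinases that is itself an immediate early gene (r = 0.81), Junb was most like Ppp1r15a, a stress-induced phosphatase subunit (r = 0.82), and Jun was most like the integrin gene Itgb3 (r = 0.84) and the immediate early gene Ier3 (r = 0.80). For Fos the highest r was 0.72, with Fiz1.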

How the data were processed

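Total RNA of each sample was hybridised to 1 Affymetrix Mouse Gene ST 1.0 array. Probe sets were summarised by the authors with justRMA (affy), which subtracts background, quantile normalizes the arrays and fits a median polish, and the values were deposited as log2 intensities. Because all arrays are set to one intensity distribution, a general rise or fall of RNA in the cells would not be seen. RMA, affy and mm9 are listed in the submitters' processing notes. Symbols were read from an annotation table of the platform with 22961 probe sets, of which 21640 had 1 symbol and 1321 several, and the latter were left out with the 11799 probe sets not in the table. A gene with several probe sets (954 genes, none of the 10) was represented by that with the highest mean. Arrays have no depth, and their number limits the precision.

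Groups were taken from the sample descriptions. Comparisons were fitted with limma 3.58.1 in R 4.3.3 (lmFit and eBayes, tested on simulated data), and p-values were adjusted over 19937 genes by the Benjamini-Hochberg method with a threshold of 0.05. The parental times were fitted on 23 arrays, the untreated resistant lines against 0 h on 9, and the response of R500, R1000 and R4000 on 16 with a term for each line. No comparison columns of the authors were used. The 10 genes and all gene lists were chosen with earlier results of these data known. In each pathway list and comparison, up to 4 genes that passed are named, those with the smallest p. Of the other immediate early genes at 24 h, all that passed are named, which is more than 4. Also named are genes among the 3 with the highest Pearson's r to each of the 10 over all arrays. The 4 B-cell and myeloid marker genes named were chosen after their values were seen. Measured genes numbered 12 of 12 for other AP-1, 45 of 45 for other immediate early, 22 of 26 for upstream factors and kinases, 7 of 7 for feedback inhibitors, 13 of 14 for B-cell, 29 of 30 for fibroblast, 12 of 12 for myeloid, 10 of 12 for T and NK cell and 17 of 20 for housekeeping genes.

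The titles and the descriptions number the 6 h and 12 h samples differently. By the description number, deviations from the group means correlated between same-numbered arrays with r from 0.065 to 0.773 over 43 pairs of arrays. For 6 h and 24 h against 0 h, 48 h against 24 h, 12 h against 6 h and 24 h against 12 h every r was above 0.1, and the number was taken to pair the samples there. For 12 h and 48 h against 0 h 1 pair each was below it. Alternatives were other centrings, quantile normalization, a filter for genes at or above the array median on at least 4 arrays, the mean of all probe sets, fits of the compared groups alone, an intensity trend with robust variance, array weights, a fibroblast covariate, the culture number as a block, and leaving out each array. Promoter windows came from a RefSeq table of assembly GRCm38.p6. Figures were drawn with matplotlib 3.10.9.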

Additional observations from a re-analysis of the deposited data

Results flagged for a closer look

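Of 50 sets of arrays (the 10 genes at 5 parental times), 3 had an array set apart from the others by more than Dixon's critical value, and chance gives about 1 in 20. At 6 h the Fosb level of culture 2 was the lowest, at 7.59 against 7.82 for the next, and this gap made up 0.957 of the range of the 4 arrays. At 12 h the Egr2 level of culture 5 was the highest, at 7.26 against 7.04, and the gap made up 0.932 of the range. At 12 h the Nr4a2 level of culture 2 was the highest, at 9.15 against 8.66, and the gap made up 0.829 of the range.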

How the results depend on the processing

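Of the 10 genes, the number that passed at 24 h against 0 h was 4 in the reported fit, 0 with only the compared groups fitted and 1 with the fibroblast mean as a covariate. It was 3 after quantile normalization, where Nr4a3 lost its call (-0.19, adjusted p = 0.105), and 3 with an intensity trend and robust variance, where Fosb did (adjusted p = 0.0522). At 12 h it was 0, and it was 2 with array weights, 1 with the fibroblast covariate and 3 with the culture number as a replicate block. At 48 h it was 0, and it was 1 with array weights, 1 with the fibroblast covariate and 2 with the replicate block. For the steps from 6 to 12 h and from 12 to 24 h, which were added after seeing the data, it was 0, and 1 (Jun) with array weights. In treated resistant lines it was 1, and it was 0 with arrays centred on their medians, 0 after quantile normalization, 0 with the fibroblast covariate and 2 with the resistant arrays alone. With each array left out in turn the count ran from 0 to 2 at 6 h, 0 to 3 at 12 h, 1 to 5 at 24 h, 0 to 4 at 48 h and 0 to 1 in treated resistant lines. The cause of these shifts was not tested. For 48 h against 24 h, the untreated resistant lines and the difference in response it was 0 in every alternative. Besides Egr2 at 24 h, the replicate block changed no call for the 10 genes in the comparisons that the number pairs. Of the values of single genes under an alternative, 2947 kept their side of the threshold, 57 lost their call, 29 gained one and 0 changed sign as a call. The filter on dim probe sets removed Fos, Egr2 and Nr4a3 from the parental fits. From the fits with resistant lines it removed Egr2 and Nr4a3, and Fos stayed in and kept its call in treated resistant lines. The covariance counts were the same with median centring. Over all genes, 4 passed at 6 h, 102 at 12 h, 1351 at 24 h and 50 at 48 h, against 62, 708, 4711 and 654 with the replicate block by description number, 0, 18, 122 and 5 with only the compared groups, and 10, 204, 581 and 152 with the fibroblast covariate. Array weights gave 14 at 6 h and 279 at 12 h, and raised the counts for 48 h against 24 h from 21 to 700, for the steps from 6 to 12 h and from 12 to 24 h from 7 to 276 and from 7 to 1797, for untreated resistant lines from 15 to 100, for treated resistant lines from 6 to 161 and for the difference in response from 0 to 14. The block gave 208, 30, 459 and 8 for 48 h against 24 h, both steps and the difference in response. Treated resistant lines gave 76 with their arrays alone. Quantile normalization gave 2080 at 24 h, 102 at 48 h and 33 for untreated resistant lines. Arrays centred on their medians gave 59 at 12 h and 27 at 48 h, and the filter on dim probe sets gave 167 and 76.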
